A study of Arabidopsis thaliana with 30 samples.

Results

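Class III peroxidases are secreted plant enzymes of the cell wall and vacuole. The members described here are 60 Arabidopsis thaliana genes, given as a fixed list of locus identifiers, of 32753 genes in the deposited table. The list was taken as given and its completeness was not examined. This list and the role lists used below were chosen with earlier results of these data known. Counts over them are therefore descriptive. Each member was read as its transcript abundance, summed over its transcript models, in all 30 RNA-seq libraries. Of the 60 members, 53 passed the filter on low values in every fit and were tested, and 7 did not.

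The study asked how forced pairing of a root peptide receptor with its co-receptor changes root gene expression. RGF1 is a secreted root peptide, RGI1 and RGI5 are receptor kinases that perceive it, and BAK1 is their co-receptor kinase. In the RiD-RGI1/BAK1 line (the RGI1 line) and the RiD-RGI5/BAK1 line (the RGI5 line), rapamycin is meant to bring the engineered receptor and BAK1 together without peptide. Roots of 7-day-old seedlings of ecotype Col-0, the background of both lines, were sampled after 4 h of treatment in 10 groups of 3 libraries. The RGF1 set held wild type with mock or with 100 nM RGF1. In the RGI1 set, the RGI1 line and a wild type of its own were given mock (DMSO, by the sample titles) or 1 µM rapamycin. In the RGI5 set, the RGI5 line and another wild type were given mock, also DMSO, or 100 nM rapamycin, a lower dose. No source used here gives the promoters, the number of independent lines or the number of plants pooled, so an effect of the construct cannot be told apart from one of a single transformant. The labels do not say that replicates came from separate cultures, and the spread that p-values measure here may therefore be technical.

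Class III peroxidases use hydrogen peroxide to oxidise phenolic compounds, which cross-links wall polymers and polymerises lignin, and they can also produce reactive oxygen species. In roots they are known for the growth of root hairs, for the lignified Casparian strip of the endodermis, for xylem lignification and for the oxidative burst of defence. The balance of superoxide and hydrogen peroxide, which the transcription factor UPBEAT1 sets partly by repressing peroxidase genes, is known to act on the transition from cell division to elongation at the root tip, where RGF1 acts too.

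Values are in TPM, a length-adjusted share of a library's transcripts that keeps no read depth, so the depth behind each value is unknown. A library held 18999 to 19331 genes at 1 TPM or more. The gene AT1G15405 alone took 10.6% to 11.2% of the RGI1 line libraries and 6.21% to 7.48% of their wild type under mock. With rapamycin these ranges were 8.51% to 11.9% and 6.63% to 9.52%. In shares such as TPM, a larger part for 1 gene leaves less for all others, and its part in the line differences below was not tested. RGI1 under mock had 204 ± 4.7 TPM (SD, n = 3) where it is engineered and 31.7 ± 1.54 TPM in the matching wild type, and RGI5 stood at 47.0 ± 1.48 against 2.85 ± 0.521 TPM in the RGI5 set, each higher in its own line. BAK1 was higher in both lines under mock. It held 180 to 186 against 52.8 to 54.5 TPM in the RGI1 set, and 101 to 114 against 51.3 to 57.5 TPM in the RGI5 set. All of the 9 root hair, 8 endodermis and 6 xylem markers averaged at least 1 TPM over all libraries, and 5 of 10 green shoot markers did. The shoot markers summed to 60.4 to 74.4 TPM in the RGI1 line and 35.0 to 41.6 TPM in its wild type under mock, and their part in the line differences below was not tested. Replicate 3 of the wild-type mock of the RGI5 set stood apart, with root hair markers summing to 255 TPM and endodermis markers to 196 TPM, each the lowest of all 30 libraries. Since whole roots were used, fewer cells of a type and less RNA per cell cannot be told apart in any result below.

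The family took between 0.778% and 1.14% of a library and was led by a few genes. By their mean over all libraries, 21 members stood at 100 TPM or more, 23 between 10 and 100, 9 between 1 and 10, and 7 under 1 TPM. The top 3 held 33.9% of the family's TPM and the top 10 held 69.1%. These 3 were AT5G64100 at 1331 TPM, AT4G21960 (PRXR1) at 1093 TPM and AT3G32980 at 730.2 TPM. They were followed by AT2G38380 (599.9 TPM), AT4G30170 (574 TPM), AT2G37130 (534 TPM), AT5G64120 (473 TPM), AT3G49120 (PRXCB, also PRX34; 429 TPM), AT5G17820 (335 TPM) and AT2G38390 (329.9 TPM). Neighbours in that order overlapped in their range over libraries: AT3G32980 spanned 477 to 976 TPM and AT2G38380 spanned 403 to 727 TPM. The 7 members under 1 TPM were AT3G49110 (PRXCA, also PRX33), AT5G19880, AT1G24110, AT3G50990 (PER36), AT5G58390, AT4G17690 and AT5G58400, and the last 2 were listed at 0 in all libraries. The sum over the family was 8738 ± 468 TPM (SD, n = 3) in wild type and 8134 ± 321 TPM in the RGI1 line under mock of the RGI1 set, and 8921 ± 93.6 and 8497 ± 189.6 TPM with rapamycin. In the RGI5 set it was 9756 ± 277 and 10298 ± 942 TPM under mock, with 1 line library at 11383 TPM. The wild-type mock groups of the 3 sets were not alike: of 44 members with a mean of at least 10 TPM, 11 had wild-type mock means that spanned over 1.5-fold between sets, so each set was compared with its own wild type.

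**Figure D1:**
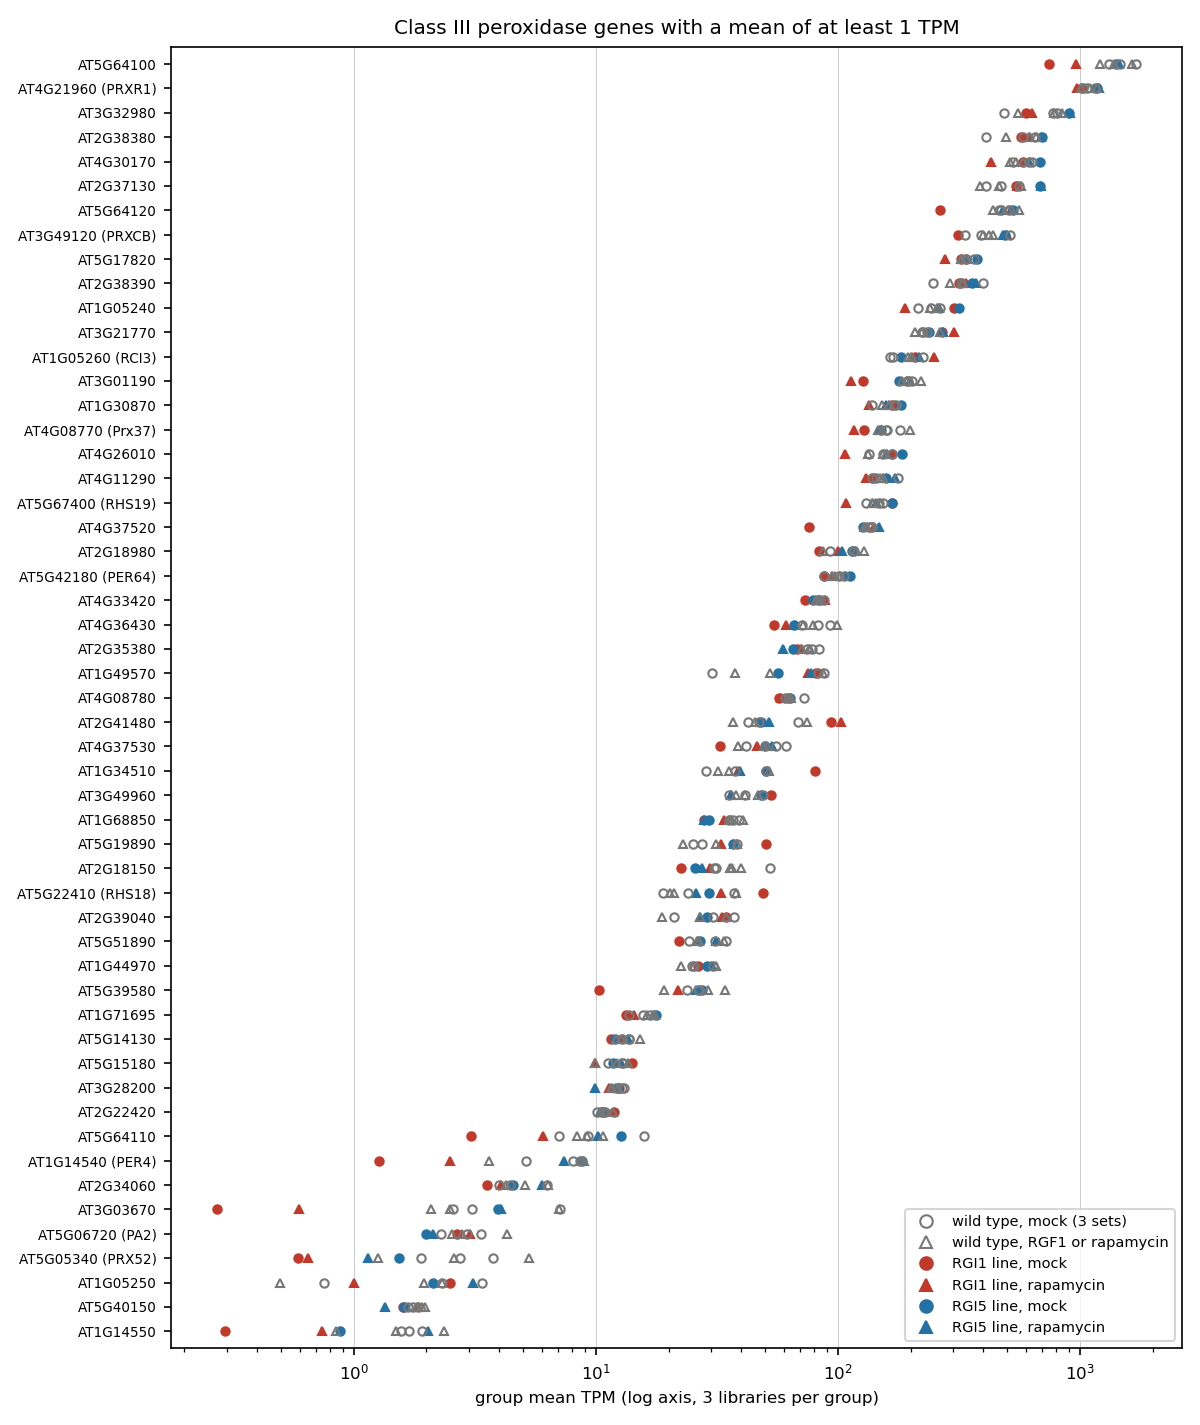
Mean TPM (log axis) of the 53 class III peroxidase genes with a mean of at least 1 TPM, ordered by mean, with 1 symbol for each of 10 groups of 3 libraries; open grey symbols are wild type, red the RGI1 line, blue the RGI5 line, circles mock and triangles treated. The RGI1 line under mock (red circles) is the lowest group for AT5G64100 at 746 TPM and for AT3G03670 at 0.273 TPM, and the highest for AT1G34510 at 80.8 TPM.

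Under mock treatment, without rapamycin, peroxidase transcripts differed between the RGI1 line and its wild type. By limma with Benjamini-Hochberg adjustment over all genes tested, 10 members were higher and 18 lower, 28 of 53 or 52.8%, at an adjusted p under 0.05, where 16.5% of all genes tested were called, 2% higher and 14.5% lower. Members of the defence list and a cluster of neighbouring genes on one chromosome were among the lower ones, and abundant members of no listed role among the higher ones. The median difference of the members tested (line minus wild type, log2 of TPM + 1) was -0.10 and that of all genes was -0.09. After scaling each library to a common median ratio, which moved the median of all genes up by 0.10, 11 members were called higher and 11 lower. Of the 28 calls, 21 held under that scaling and 23 under quantile normalization, which called 10 higher and 13 lower, and none changed direction. Of all 19634 genes tested, 1692 were called under median-ratio scaling and 1788 under quantile normalization, beside 3239 as deposited. The shares of all genes, here and below, were not matched to the members in abundance. Of the 60 members, 44 averaged at least 10 TPM over all libraries.

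The defence and oxidative burst list holds 7 members, of which 6 were tested and 2 (AT5G39580 and AT5G64120) are also in another list, and 5 of these were lower in the RGI1 line under mock (list median -0.96). Under either other scaling 4 were called, and PRXCB was the one lost. AT1G14540 (PER4), which with its neighbour AT1G14550 is known to be induced by microbial elicitors, stood at 1.46, 1.38 and 0.961 TPM in the 3 line libraries and at 5.02, 4.31 and 6.17 TPM in the 3 wild-type libraries. The groups were far apart, and the difference was -1.44 (SE 0.12, adjusted p = 1.85e-05) on the log2 scale. AT1G14550 was near the detection level, at 0.365, 0.0859 and 0.428 TPM in the line and 1.5, 0.922 and 2.28 TPM in wild type. Its difference of -0.97 (SE 0.20, adjusted p = 0.00893) rested on low values, for which this scale understates a fold change. AT1G14550 was under 1 TPM in every line library of the set and passed the filter through wild type alone. It is 1 of the 5 counted as lower. AT5G39580, a member known for stress responses and for root hair growth in the cold, was lower as well. It held 10.2, 11.6 and 9.06 TPM in the line and 20.4, 20.6 and 30.5 TPM in wild type, a difference of -1.12 (SE 0.13, adjusted p = 0.000257). AT5G64120 (PRX71), which is known for lignification and for restraining growth when walls are damaged, held 312, 263 and 222 TPM against 514, 449.7 and 566 TPM. Every line library was below every wild-type library, with a difference of -0.94 (SE 0.12, adjusted p = 0.000357). PRXCB, which with PRXCA is known to make hydrogen peroxide in the elicitor-triggered burst, was lower by a smaller amount, at 315 ± 32.3 TPM against 391 ± 35.6 TPM (difference -0.31, SE 0.08, adjusted p = 0.0204). The remaining tested member of the list, AT5G06720 (PA2, PRX53), did not pass the test, at 2.68 ± 0.533 against 2.29 ± 0.338 TPM.

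The most abundant member, AT5G64100, which is known for root hair growth in the cold together with AT5G39580, was also lower. It held 842, 729.9 and 668 TPM in the RGI1 line and 1318, 1215 and 1419 TPM in wild type under mock, a difference of -0.82 (SE 0.09, adjusted p = 0.000103). Its neighbour AT5G64110, which lies between AT5G64100 and AT5G64120 in gene order, held 3.68, 2.87 and 2.6 TPM against 9.17, 8.43 and 10.4 TPM, a difference of -1.36 (SE 0.15, adjusted p = 0.00014). All 3 genes of that run were thus lower in the line, though their levels lay far apart. The lowest fold change of the family belonged to AT3G03670, at 0.223, 0.371 and 0.224 TPM in the line and 2.46, 3.39 and 3.37 TPM in wild type (difference -1.67, SE 0.15, adjusted p = 3.7e-05). AT3G03670 was under 1 TPM in every line library and passed the filter through wild type alone, so its estimate rested on low values. AT5G05340 (PRX52), known for lignin of stem fibres, followed at 0.668, 0.738 and 0.355 TPM against 1.94, 2.84 and 6.53 TPM. Its difference of -1.48 (SE 0.27, adjusted p = 0.0041) was called, though the wild-type values were spread over more than 3-fold and the line values were under 1 TPM. PRX52, too, passed the filter through wild type. AT4G37520 (75.8 ± 7.14 against 134 ± 7.57 TPM) and AT3G01190 (128 ± 9.92 against 193 ± 7.99 TPM) had differences of -0.82 and -0.60 on the log2 scale, with adjusted p of 0.000107 and 5.26e-05. The other 7 lower members ranged from -0.57 (AT4G36430) and -0.46 (AT1G68850) to -0.14 (AT2G18980).

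Among the members higher in the RGI1 line under mock, AT5G19890 had the largest difference, 0.97 (SE 0.18, adjusted p = 0.00409), with 47.9, 57.9 and 45.9 TPM in the line and 25.1, 23.8 and 26.8 TPM in wild type. AT1G34510 held 79.5, 80.3 and 82.7 TPM against 46.8, 45.0 and 59.5 TPM, a difference of 0.68 (SE 0.10, adjusted p = 0.000994). The root hair genes AT5G22410 (RHS18) and AT1G05240 were higher by 0.39 and 0.19, with adjusted p of 0.01 and 0.0462. The call of AT1G05240 was lost without any of 5 of the 6 libraries, with an adjusted p of up to 0.136. The root hair list as a whole was mixed, with 2 of 6 higher and 2 lower, the lower ones being AT5G64100 and AT5G39580. Root hair markers that are no peroxidases had 2 of 9 lower as deposited and 0 under either other scaling. AT2G38380 (573 ± 48.7 against 410.5 ± 9.62 TPM, 0.48) and its neighbour AT2G38390 (316 ± 29.4 against 247 ± 8.65 TPM, 0.35) were both higher. AT2G41480 (PRX25), known for lignin formation, AT1G05260 (RCI3), named for its induction by cold, AT3G32980 and AT3G21770 were higher by 0.46, 0.33, 0.30 and 0.27, with adjusted p between 0.00521 and 0.0114. Without line replicate 3 the calls of AT2G38390 and AT3G32980 were lost, at an adjusted p of 0.061 and 0.0521, and without wild-type replicate 2 that of AT2G38390 (0.0521). Of the Casparian strip list, RCI3 alone of 4 was called, and AT5G42180 (PER64), which localises to the strip, stood at 87.7 ± 3.46 against 101 ± 7.62 TPM with an adjusted p of 0.121. The 8 endodermis markers summed to 262 to 278 TPM in the line and 301 to 346 TPM in wild type, groups that did not overlap, with a median difference of -0.32 beside -0.09 for all genes. As deposited 2 of the 8 were called lower and 0 higher, and under either other scaling 0 were called. Their part in the differences of the peroxidases was not tested. Of the green shoot markers, 3 of 5 tested were higher, also under both other scalings.

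**Figure D2:**
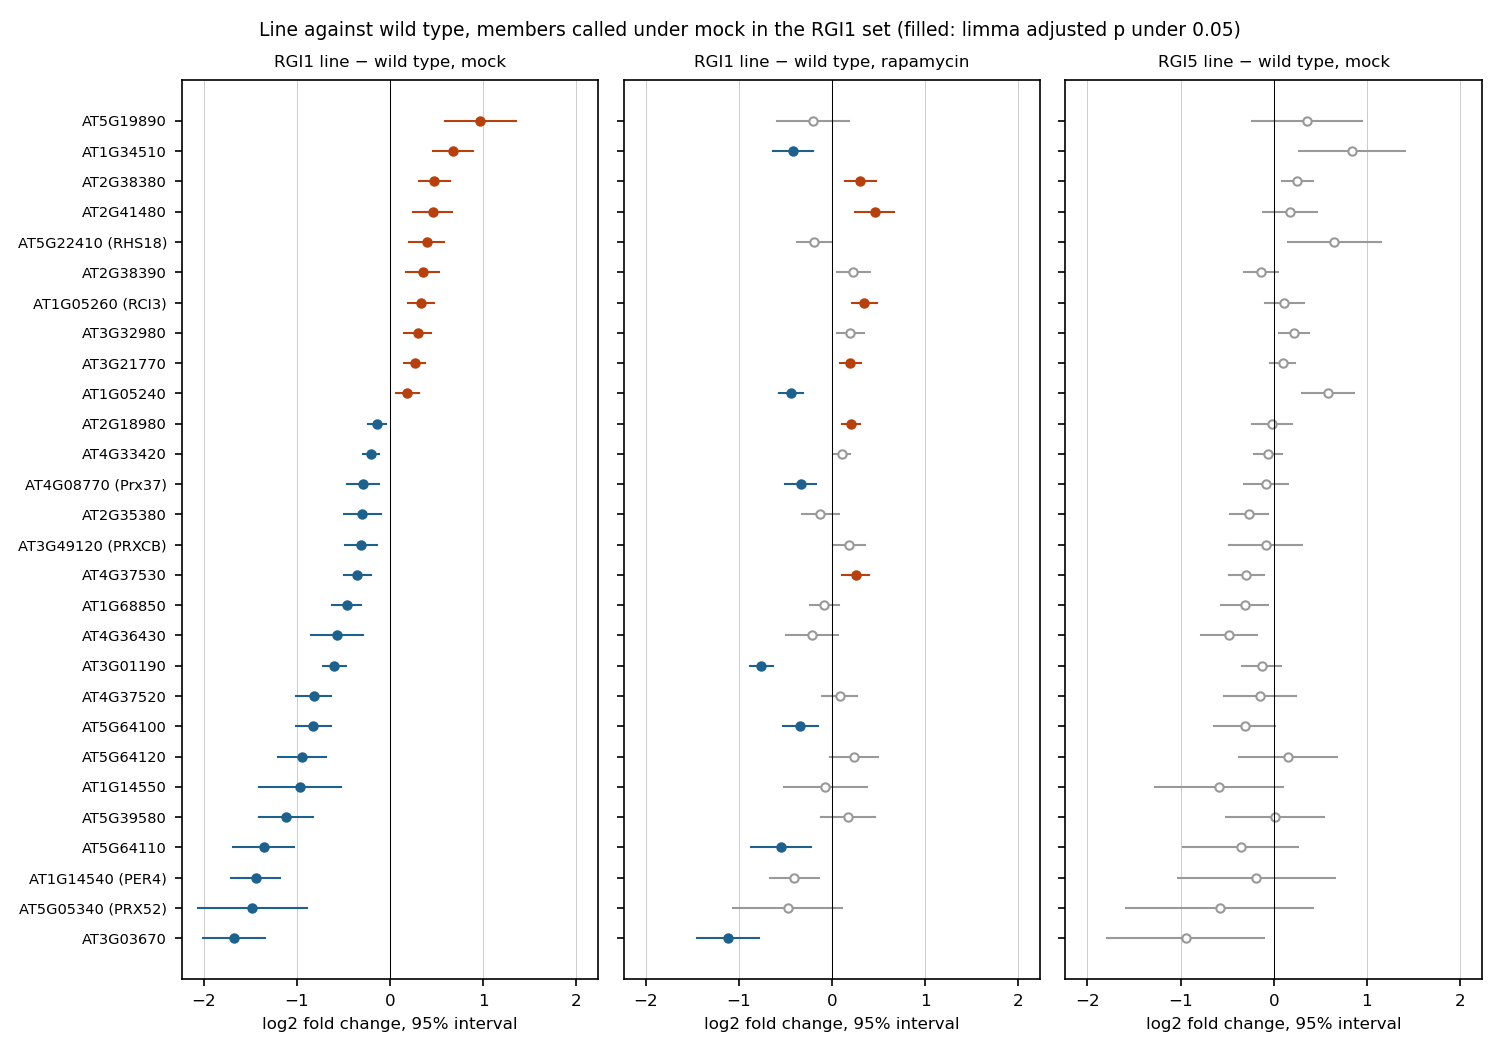
Differences in log2(TPM + 1) with 95% intervals (horizontal axis) between line and wild type for the 28 members called in the RGI1 set under mock, shown for the RGI1 set under mock, the RGI1 set with rapamycin, and the RGI5 set under mock; filled points passed an adjusted p under 0.05 in limma. In the first panel 10 members lie right of 0 and 18 left, from 0.97 (AT5G19890) to -1.67 (AT3G03670), and none of these 28 is filled in the RGI5 panel.

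Rapamycin for 4 h moved peroxidase transcripts of the RGI1 line in both directions. Of 53 members tested, 12 were higher and 9 lower than under mock, 21 or 39.6%, where 4.05% of all genes tested were called, 2.56% higher and 1.49% lower. Members of the defence list were among those raised and root hair members among those lowered. The median log2 fold change of the members was 0.10 and that of all genes was 0.03. Under quantile normalization 19 of these 21 calls held and under median-ratio scaling 18, with none reversed, and in one fit of all 30 libraries 12 members were called, 6 in each direction. This comparison shares the line's mock libraries with the one above, so the 2 are not independent.

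Of the defence and oxidative burst list, 4 of 6 tested members were raised by rapamycin in the RGI1 line (list median 0.65), and 4 were under either other scaling. AT5G39580 had the highest fold change of the called members. It held 10.2, 11.6 and 9.06 TPM under mock and 23.6, 19.8 and 22.2 TPM with rapamycin, a log2 fold change of 1.02 (SE 0.13, adjusted p = 0.00111). Wild type of the same set held 20.4, 20.6 and 30.5 TPM under mock and 18.6, 20.7 and 18.3 TPM with rapamycin, so the treated line overlapped wild type and the mock-treated line stood below both. The line libraries of PRX71 went from 312, 263 and 222 TPM to 574, 496 and 484 TPM, a fold change of 0.97 (SE 0.12, adjusted p = 0.000716), and overlapped wild-type mock, while wild type with rapamycin held 429, 479 and 405 TPM, below all 3. PRXCB rose from 343, 323 and 279.5 TPM to 494, 526 and 479 TPM, by 0.67 (SE 0.08, adjusted p = 0.000563). In its case the treated line lay above all wild-type libraries of the set, of which the highest reached 453 TPM. PER4 rose from 1.46, 1.38 and 0.961 TPM to 2.71, 2.41 and 2.37 TPM (0.63, SE 0.12, adjusted p = 0.0117) and remained below wild type with rapamycin at 3.63, 3.89 and 3.34 TPM. Without line mock replicate 4 the adjusted p of PER4 was 0.0545. PRXCA, the partner of PRXCB, was under 1 TPM in every library, and reads of these near-identical copies may have been assigned to one copy. AT1G14550 and PA2 did not pass the test, with fold changes of 0.44 and 0.13.

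The other members raised in the RGI1 line included AT4G37520 and AT4G37530, which lie side by side. AT4G37520 rose from 77.5, 81.9 and 67.9 TPM to 145, 156 and 123 TPM, by 0.89 (SE 0.09, adjusted p = 0.000139), and AT4G37530 rose from 34.8, 31.4 and 31.8 TPM to 46.1, 46.8 and 46.4 TPM, by 0.50 (SE 0.07, adjusted p = 0.00128). The treated values of AT4G37530 lay within 1 TPM of each other. AT5G64110 rose from 3.68, 2.87 and 2.6 TPM to 7.38, 6.03 and 4.77 TPM (0.79, SE 0.15, adjusted p = 0.0103), with an adjusted p of 0.053 without line mock replicate 4. AT5G64100 rose by 0.37, from 746 ± 88.3 to 963 ± 55.7 TPM, and its call (adjusted p = 0.0308) was lost without any of 5 of the 6 libraries, with an adjusted p of up to 0.135. Of the lignin and xylem list, 3 of 7 were called higher: PRX71, AT4G33420 (0.28) and AT5G51890 (0.25), the latter 2 known from lignifying vessels. AT5G51890 lost its call under both other scalings, and the 6 xylem markers held 0 calls, summing to 235 to 254 TPM under mock and 241 to 272 TPM with rapamycin. RCI3 (0.26) and AT2G18980 (0.26) completed the 12, and RCI3 lost its call under both other scalings and without any of 5 of the 6 libraries, with an adjusted p of up to 0.146.

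**Figure D3:**
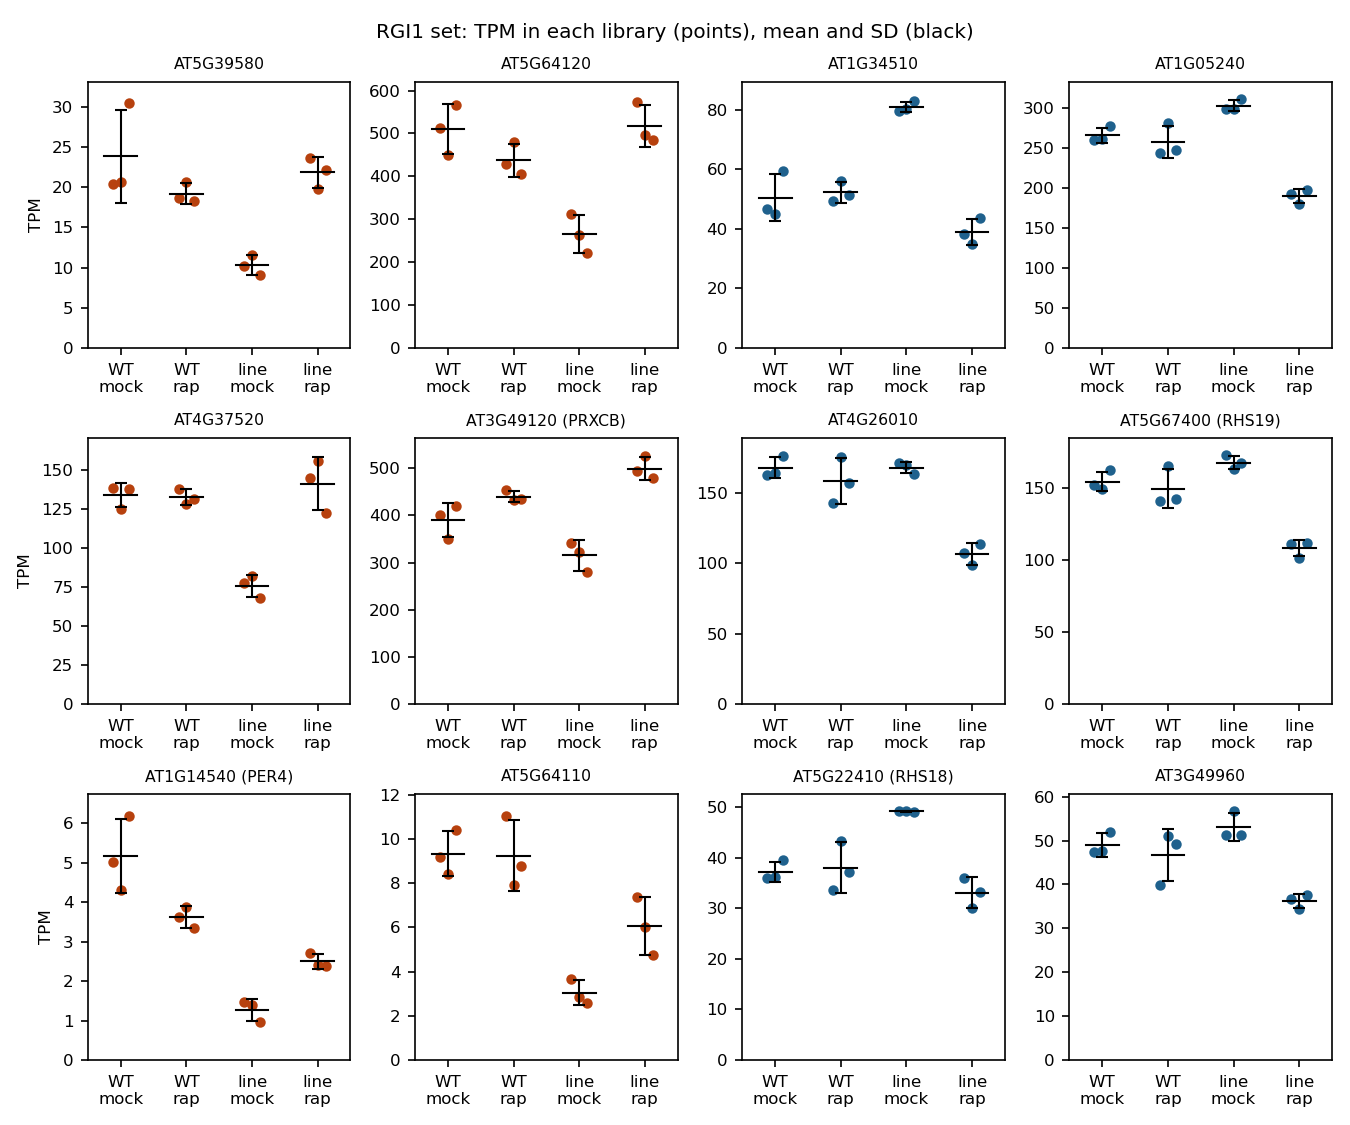
TPM (vertical axes, from 0) of 12 members called in the rapamycin response of the RGI1 line, in each of the 12 libraries of the RGI1 set; points are libraries, black bars the mean and SD of 3, orange members that rose and blue members that fell. In the left 2 columns the line is lowest under mock (AT5G39580 at 10.3 TPM, and 21.8 TPM with rapamycin), and in the right 2 its mean is lowest with rapamycin (AT1G34510 at 38.9 TPM, and 80.8 TPM under mock).

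Of the 9 members that fell in the RGI1 line with rapamycin, 4 were root hair genes. Of the root hair growth list, 4 of 6 fell and 2 rose, the risers being AT5G39580 and AT5G64100, with a list median of -0.59. Under median-ratio scaling AT5G64100 was no longer called. AT1G05240, AT4G26010 and AT5G67400 (RHS19) are known to act together in root hair growth. AT1G05240 fell from 298, 299 and 310.5 TPM to 192, 179.5 and 197 TPM, a log2 fold change of -0.67 (SE 0.06, adjusted p = 6.15e-05), the smallest adjusted p of the members in this comparison. Wild type held 259, 261 and 277 TPM under mock and 243, 281 and 248 TPM with rapamycin, so the treated line lay below every other library of the set. AT4G26010 fell from 171, 169.8 and 163 TPM to 107, 98.7 and 114 TPM (-0.65, SE 0.07, adjusted p = 0.000337), and RHS19 from 172, 163 and 167 TPM to 111, 102 and 112 TPM (-0.63, SE 0.06, adjusted p = 0.000225). These 2 likewise held treated line values below every wild-type library, of which the lowest stood at 143 and 141 TPM. RHS18 fell from 49.2, 49.2 and 49.0 TPM to 36.1, 29.98 and 33.2 TPM, a fold change of -0.56 (SE 0.09, adjusted p = 0.00292), and overlapped wild type. AT1G34510 had the largest fall among the called members. It went from 79.5, 80.3 and 82.7 TPM to 38.2, 35.0 and 43.6 TPM, a fold change of -1.04 (SE 0.10, adjusted p = 0.000111). AT3G49960 (-0.54, SE 0.08, adjusted p = 0.00297) and the abundant AT4G30170, from 585 ± 13.4 to 429.8 ± 21.8 TPM (-0.44, SE 0.06, adjusted p = 0.00109), fell as well. AT5G15180 (-0.47) and AT1G30870 (-0.30) were called too, but each lost its call without single libraries (5 and 6 of the 6, adjusted p of up to 0.0819 and 0.104).

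Root hair markers that are no peroxidases were lower beside these genes. Of 9 such markers, 6 were lower with rapamycin in the RGI1 line (PRP3, LRX1, EXPA18, MOP10, RSL4 and EXPA7) and 0 higher, with the same counts under both other scalings. PRP3, a cell wall protein of root hairs, had the largest change at -1.17 (SE 0.14, adjusted p = 0.000536). The 9 summed to 390 to 401 TPM in the line under mock and to 299 to 308 TPM with rapamycin, groups that did not overlap, while wild type held 382 to 421 TPM under mock and 359 to 411 TPM with rapamycin. The part of these cells in the fall of the peroxidases was not tested. Endodermis, xylem and green shoot markers had 0 calls in this comparison.

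In wild type of the RGI1 set, 1 µM rapamycin called 0 of 53 members, and 0% of all genes tested. An unadjusted p under 0.05 was reached by 10 members, 18.9% beside 6.57% of all genes, and the lowest adjusted p of a member was 0.435 (AT3G21770). The difference between the line's response and the wild-type response was tested in the same fit, and it passed for 14 members, 7 higher and 7 lower in the line, 26.4% of those tested, where 1.25% of all genes were called, 0.82% higher and 0.428% lower. PRX71 had a response of 0.97 in the line and -0.22 in wild type, a difference of 1.19 (SE 0.17, adjusted p = 0.00544). AT4G37520 responded by 0.89 in the line and -0.01 in wild type, a difference of 0.90 (SE 0.12, adjusted p = 0.00413). The responses of PER4 had opposite signs, 0.63 and -0.41. Among root hair genes, AT1G05240 differed by -0.62 (SE 0.08, adjusted p = 0.00331), RHS19 by -0.58 and AT4G26010 by -0.57. AT5G19890 was not called in either response, yet its difference of -1.17 was called (adjusted p = 0.0425) with a wild-type response of 0.56 and a line response of -0.62. That call was lost without any of 10 of the 12 libraries (adjusted p of up to 0.11), with no filter and under both other scalings. PRXCB, by contrast, had a difference of 0.49 (SE 0.11, adjusted p = 0.058), above the threshold. RCI3 had responses of 0.26 in the line, where it was called, and 0.25 in wild type, where it was not, with an interval of the difference of -0.18 to 0.21. In one fit of all 30 libraries 0 members were called, and without replicate 1 of the wild-type mock there were 9.

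**Figure D4:**
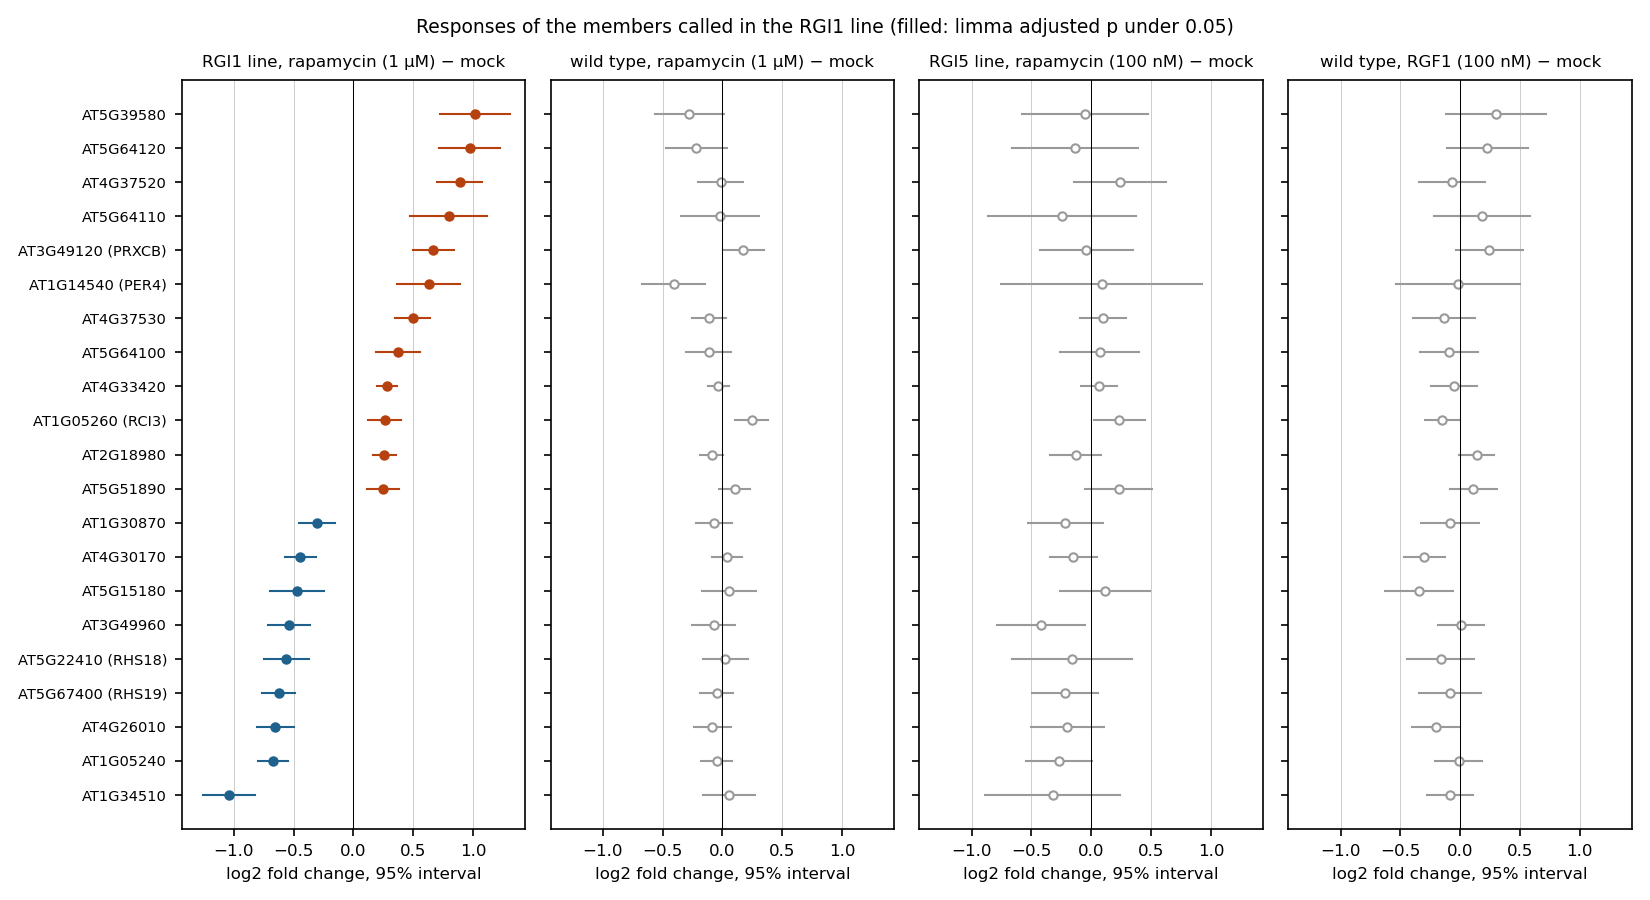
Log2 fold changes with 95% intervals (horizontal axis) of the 21 members called in the rapamycin response of the RGI1 line, in that response, in the wild type given the same dose, in the RGI5 line and in wild type given RGF1; filled points passed an adjusted p under 0.05 in limma. The 12 members right of 0 and 9 left of 0 in the first panel, from 1.02 (AT5G39580) to -1.04 (AT1G34510), have no filled point in the other 3 panels.

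A comparison of line and wild type, both with rapamycin, was added after the data were seen. It sets the treated libraries of the RGI1 set against each other, and the comparison under mock sets the mock libraries against each other. Both come from the same fit, so they share its filter and its estimates of spread and are not independent. It called 6 members higher and 15 lower, 39.6% of 53, where 8.05% of all genes were called, 1.89% higher and 6.15% lower. Median-ratio scaling gave 8 higher and 8 lower, quantile normalization 8 and 11, and both no filter on low values and a fit of all 30 libraries gave 11 in all. Over all genes tested, median-ratio scaling called 1447 and quantile normalization 1525, beside 1580 as deposited. Of the 28 members called under mock, 13 (46.4%) were also called with rapamycin, and these were 61.9% of the 21, while over all genes tested the shares were 25.4% and 52.2%. Of the 13, 9 had the same direction and 4 the opposite one. Over all genes tested, 824 were called in both, 793 in the same direction and 31 in opposite ones. Under quantile normalization 8 of the 13 were called in both, 2 of them in opposite directions, and under median-ratio scaling 7 and 1. Of the members called under mock in these scalings, 10 of 23 (43.5%) and 9 of 22 (40.9%) were also called with rapamycin. Of these, 3 and 2 had opposite directions. Over all genes the shares were 33.8% and 33.6%, with 31 of 604 and 26 of 569 in opposite directions. RCI3, AT2G38380, PRX25 and AT3G21770 were higher in the line under both conditions, and AT3G01190, AT3G03670, AT4G08770 (Prx37), AT5G64100 and AT5G64110 were lower. Prx37 lost its mock call, and AT5G64100 and AT5G64110 their rapamycin calls, under either other scaling. Without single libraries, the rapamycin call of AT3G21770 was lost in 6 of 6 fits (adjusted p of up to 0.111). Those of AT2G38380 and AT5G64110 were lost in 4 of 6 (up to 0.113 and 0.132), and that of PRX25 in 1 (0.0522). AT3G01190 had the smallest adjusted p, at 116, 115 and 110.2 TPM in the treated line and 198, 195 and 186 TPM in treated wild type, a difference of -0.76 (SE 0.06, adjusted p = 1.28e-05). AT3G03670 remained lower too, at 0.595 ± 0.114 against 2.49 ± 0.762 TPM (-1.11, SE 0.15, adjusted p = 0.000806), again under 1 TPM in every line library. AT1G05240, a root hair gene, and AT1G34510 were higher under mock and lower with rapamycin (-0.44 and -0.42), and AT2G18980 and AT4G37530 were lower under mock and higher with rapamycin (0.21 and 0.26) as deposited. Both lost the mock call under either other scaling, and AT4G37530 lost the rapamycin call without any of 5 of the 6 libraries (adjusted p of up to 0.125). AT1G05240 kept opposite calls under both scalings, though its mock call rested on single libraries as above, and AT1G34510 lost its rapamycin call under median-ratio scaling. Of the root hair list 4 of 6 were lower and 0 higher, and 3 under either other scaling, with AT4G26010 at -0.56 and RHS19 at -0.46. These 4 were not the 4 that fell with rapamycin in the line. RHS18 was not called here, and AT5G64100, which had risen, was the one lost under either other scaling. The defence list had 0 calls with rapamycin: PRX71 stood at 0.24 with an interval of -0.02 to 0.50, and AT5G39580 at 0.17 with an interval of -0.12 to 0.47. The count fell from 21 to 10 without replicate 2 of either group, to 12 without wild-type rapamycin replicate 4 and to 13 without line rapamycin replicate 1. The root hair markers were lower in this comparison as well, 6 of 9 as deposited, 5 under quantile normalization and 4 under median-ratio scaling. Of the green shoot markers 2 of 5 tested were higher and 0 lower, also under both other scalings, with sums of 54.6 to 85.8 TPM in the treated line and 39.1 to 45.2 TPM in treated wild type. The part of either in these differences was not tested.

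Members that neighbour each other on a chromosome form 11 pairs, side by side or with 1 gene between, that hold 20 of the 60 members, by gene order in the TAIR10.1 annotation. The run AT5G64100, AT5G64110 and AT5G64120 had differences of -0.82, -1.36 and -0.94 between the RGI1 line and wild type under mock and rose with rapamycin by 0.37, 0.79 and 0.97, although its mean levels were 1331, 9.26 and 473 TPM. The pair AT4G37520 and AT4G37530, at 129 and 48.1 TPM, also had like signs, with -0.82 and -0.35 under mock and 0.89 and 0.50 with rapamycin. The run AT1G05240, AT1G05250 and RCI3 did not: with rapamycin AT1G05240 fell by 0.67 and RCI3 rose by 0.26. Between them, AT1G05250 averaged 2.00 TPM against 255 TPM for AT1G05240. AT1G05250 and AT1G05240 are near-identical copies, so reads can be split between them, and the value of each is uncertain.

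In the RGI5 set, 100 nM rapamycin called 0 of 53 members in the RGI5 line, where 0% of all genes were called. An unadjusted p under 0.05 was reached by 6 members, 11.3%, beside 11.1% of all genes. The smallest adjusted p was 0.328, for AT3G21770, at 238, 231 and 244 TPM under mock and 269.6, 275 and 269 TPM with rapamycin, a fold change of 0.19 with an interval of 0.06 to 0.32. PRX71 and PER4, which moved in the RGI1 line, were variable here. PRX71 held 407, 465 and 711 TPM under mock and 454, 354 and 631 TPM with rapamycin, and replicate 4 under mock was the highest of the 6. PER4 was spread over 3.47, 4.83 and 18.0 TPM under mock and held 7.37, 6.73 and 8.19 TPM with rapamycin, for which the interval of the fold change was -0.75 to 0.93. AT1G05240 went from 354, 319 and 281 TPM to 255, 264 and 268 TPM, -0.27 with an interval of -0.54 to 0.01, and RHS19 from 176, 159 and 170.1 TPM to 137, 149 and 145 TPM, -0.22 with an interval of -0.50 to 0.05. Neither of these 2 root hair genes passed the test. Of the root hair list, 5 of 6 members lay below 0 and 1 above (median -0.18), with 0 calls. Of the 9 root hair markers, 8 lay below 0 and 1 above (median -0.13), also with 0 calls. The median of all genes was 0.06. Wild type of the RGI5 set with 100 nM rapamycin had 0 member calls too, where 0.00509% of all genes were called, with 8 members (15.1%, beside 7.54% of all genes) at an unadjusted p under 0.05 and a lowest adjusted p of 0.386. The difference between the RGI5 line's response and its wild type's had 0 member calls, where 0% of all genes were called, 8 (15.1%, beside 10.8% of all genes) at an unadjusted p under 0.05 and a lowest adjusted p of 0.318.

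Under mock, 1 member was called between the RGI5 line and its wild type, where 0.438% of all genes were called, 0.0865% higher and 0.351% lower. AT2G18150 held 20.8, 26.3 and 30.4 TPM in the line and 52.3, 48.6 and 57.3 TPM in wild type, so that the groups did not overlap, and the difference was -1.01 (SE 0.13, adjusted p = 0.0178). Its call was lost without line replicate 1 or 2 (adjusted p = 0.0528 and 0.0703) and with no filter on low values (0.0658). An unadjusted p under 0.05 was reached by 23 members, 43.4%, beside 13.9% of all genes. The root hair genes AT4G26010 (0.46) and RHS19 (0.38) were among these 23, as was AT1G05240 at 354, 319 and 281 TPM in the line and 237, 166 and 238 TPM in wild type (0.58, SE 0.13, adjusted p = 0.0749), with the lowest wild-type value in replicate 3, the library that stood apart in its root hair markers. Without that library 1 member was called, without wild-type replicate 2 there were 2, without line replicate 4 there were 5, and in one fit of all 30 libraries there were 6. AT1G49570 had the highest difference on the log2(TPM + 1) scale, at 56.9 ± 5.33 against 30.3 ± 15.9 TPM (1.00, SE 0.25, adjusted p = 0.117). The added comparison of both with rapamycin had 0 member calls, where 0.112% of all genes were called (0.056% in each direction), with 8 members (15.1%, beside 14% of all genes) at an unadjusted p under 0.05 and a lowest adjusted p of 0.0913 (AT3G21770).

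Treatment of wild type with 100 nM RGF1 peptide called 0 of 53 members, where 0.14% of all genes were called, 0.0778% higher and 0.0623% lower. An unadjusted p under 0.05 was reached by 13 members, 24.5%, beside 10.1% of all genes. The smallest adjusted p belonged to AT2G39040, at 27.8, 35.3 and 28.6 TPM under mock and 20.7, 18.6 and 17.2 TPM with RGF1, a fold change of -0.67 (SE 0.11, adjusted p = 0.0744). Next was PRX52, at 2.39, 1.2 and 2.11 TPM and 6.27, 4.11 and 5.53 TPM, a fold change of 1.13 (SE 0.19, adjusted p = 0.0889). AT2G39040 was thus lower and PRX52 higher with RGF1, and neither passed the test. The UPBEAT1 targets AT4G11290 and AT5G17820 stood at -0.20 (interval -0.37 to -0.02) and -0.17 (interval -0.34 to -0.0043), with an adjusted p of 0.452 and 0.481. PRXCB, at 315, 304 and 393 TPM under mock and 438, 335 and 426 TPM with RGF1, had a fold change of 0.24 and an interval of -0.04 to 0.52. Among the root hair genes, AT4G26010 stood at -0.20, RHS19 at -0.08 and AT1G05240 at -0.01, with adjusted p of 0.49 or more. PRX71 (0.23), PER64 (-0.17) and PER4 (-0.02) did not pass either, and PRXCA was under the filter.

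The responses of the sets were then set against each other in a fit of all 30 libraries, although agent and dose differ between the sets, so a difference cannot be told apart from one of dose, agent or set. Between the RGI5 line and the RGI1 line, 0 members differed, where 0.0199% of all genes were called (0.0149% higher and 0.00497% lower), and 16 members, 30.2% beside 8.98% of all genes, had an unadjusted p under 0.05. The lowest adjusted p was that of PRX71, with responses of -0.14 and 0.97 and a difference of -1.11 (SE 0.29, adjusted p = 0.208), for which the interval was -1.71 to -0.50. Between the RGI1 line's response and the RGF1 response, 3 members were higher and 1 lower, where 0.408% of all genes were called, 0.328% higher and 0.0796% lower. AT4G37530 (0.50 against -0.13), AT4G37520 (0.89 against -0.07) and AT3G21770 (0.16 against -0.16) were the higher ones. AT1G05240 was the lower one, at -0.67 in the line and -0.01 with RGF1. Between the RGI5 line and RGF1, AT3G21770 alone was called, at 0.19 against -0.16, a difference of 0.35 (SE 0.07, adjusted p = 0.0193), where 1.75% of all genes were called, 1.57% higher and 0.179% lower. Median-ratio scaling gave 0 calls in both comparisons, and the call of AT1G05240 was lost without any of 11 of the 12 libraries.

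Genes that make or remove the substrates of peroxidases were read in the same fits. NADPH oxidases produce the superoxide that becomes hydrogen peroxide outside the cell. Under mock in the RGI1 line, 5 of 8 tested NADPH oxidase genes were lower and 0 higher as deposited, but 3 lower and 1 higher under both other scalings. RBOHA had the largest difference, 3.4 ± 0.095 against 5.35 ± 0.126 TPM (-0.53, SE 0.06, adjusted p = 0.000273), followed by AT4G25090 (-0.40, SE 0.05, adjusted p = 0.000631) and RHD2, the root hair NADPH oxidase that is also among the root hair markers (-0.27, SE 0.06, adjusted p = 0.00831). Rapamycin in the RGI1 line called 1 of the 8, AT4G25090, which went from 27.9 ± 1.51 to 23.7 ± 0.669 TPM (-0.22, SE 0.05, adjusted p = 0.0394). Of superoxide dismutases, catalases and ascorbate peroxidases, which remove reactive oxygen, 2 of 4, 1 of 3 and 1 of 6 tested genes were lower under mock (CSD1, CSD2, CAT2 and SAPX), and under median-ratio scaling 0 were lower and 2 higher. None of these 13 was called in the rapamycin response. UPBEAT1 itself had 45.3 ± 3.1 TPM in the line under mock and 39.7 ± 4.99 TPM with rapamycin (adjusted p = 0.482), and its targets AT5G17820 and AT4G11290 stood at -0.22 (SE 0.06, adjusted p = 0.0867) and -0.10 (SE 0.08, adjusted p = 0.647).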

How the data were processed

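Root RNA was extracted with the RNeasy Plant Mini Kit and libraries were made with a TruSeq stranded mRNA kit, per the labels' protocols. The values deposited by the authors are TPM per transcript model. Salmon and DESeq2 are named in the submitters' processing notes without a version or role. The genome build and annotation: not given in the sources used here. Since these values carry no counts, no count test was run.

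Transcript TPM were summed to genes. limma (version 3.58.1, R 4.3.3) was fitted with an intensity trend to log2(TPM + 1), so fold changes of low genes are understated, separately in each of 3 sets, and in all 30 libraries for differences between sets. Genes at 1 TPM or more in at least 3 libraries of the fit were tested, and p-values were adjusted over them by the Benjamini-Hochberg method. A call is an adjusted p under 0.05. Mean ± SD is over 3 libraries. The code was checked on simulated data. The wild-type columns of the RGI1 set carry no set name and were assigned by elimination, since the columns of the other sets match their titles, so comparisons with that wild type rest on this assignment, and 0 columns of sample values were left unused.

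The members and lists were chosen with earlier results of these data known. Named members are those called in a comparison, up to 10 with the highest and 10 with the lowest change, the 10 most abundant, and 10 fixed loci in the RGF1 and line responses; others named for a list or for comparison were chosen after their values were seen. Of 14 comparisons, 2 were added after the data were seen. Alternatives were pseudocounts of 0.1 and 5, no filter, a mean of at least 5 TPM, quantile normalization, median-ratio scaling, a replicate block, a fit of all 30 libraries and leaving out each library. Names and gene order come from RefSeq TAIR10.1. Figures were drawn with matplotlib 3.10.9. Single endodermis marker genes are not reported here.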

Additional observations from a re-analysis of the deposited data

Results flagged for a closer look

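For 14 members the response to rapamycin in the RGI1 line differed from that of its wild type by the test of the difference itself (limma, same fit). The line's response was higher by 1.29 on the log2 scale for AT5G39580, by 1.19 for AT5G64120, by 1.04 for AT1G14540, by 0.90 for AT4G37520, by 0.61 for AT4G37530, by 0.35 for AT2G18980 and by 0.31 for AT4G33420. The difference was -1.17 for AT5G19890, -1.10 for AT1G34510, -0.62 for AT1G05240, -0.59 for AT5G22410, -0.58 for AT5G67400, -0.57 for AT4G26010 and -0.48 for AT4G30170. Without each library in turn, 9 of these 14 stayed called in every fit, and those of AT5G19890, AT5G22410, AT2G18980, AT4G33420 and AT4G26010 did not.

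For 4 members the RGI1 line's response differed from that to RGF1, by 0.96 for AT4G37520, 0.63 for AT4G37530, 0.32 for AT3G21770 and -0.66 for AT1G05240. The RGI5 line's response differed from that to RGF1 by 0.35 for AT3G21770. Agent, dose and set differ in these comparisons.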

How the results depend on the processing

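Of the named calls, 12 of 19 in the rapamycin response of the RGI1 line, 16 of 20 in the RGI1 line under mock and 7 of 16 with rapamycin held under every setting and without every library, and 0 of 14, 4, 1 and 1 in the difference of responses of the RGI1 set, in the RGI1 line against RGF1, in the RGI5 line against RGF1 and in the RGI5 line under mock. Without single libraries the counts ranged from 14 to 18, 23 to 24 and 10 to 17 in the first 3, and from 9 to 15, 0 to 4, 0 to 2 and 0 to 5 in the others. They ranged from 0 to 1 for the RGI5 line with rapamycin and were 0 elsewhere. In one fit of all 30 libraries there were 12 calls for the rapamycin response of the RGI1 line, 0 for its difference from wild type, 6 for the RGI5 line under mock, 11 for the RGI1 line and 3 for the RGI5 line with rapamycin. With no filter there were 0 for the RGI5 line under mock, 0 for the RGI1 line against RGF1 and 11 for the RGI1 line with rapamycin. Under quantile normalization there was 1 for the RGI1 line and 0 for the RGI5 line against RGF1, and under median-ratio scaling 0 for both. The scalings moved the median of all genes by 0.10 in the RGI1 line under mock (quantile) and by -0.11 in the RGI5 line against RGF1. The cause was not tested.

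No pairing of samples by replicate number was detected (mean correlation of same-numbered deviations 0.007, 0.015 and 0.012). These means are over 2, 13 and 13 pairs in the RGF1, RGI1 and RGI5 sets, too few to exclude a pairing. With the replicate block 5 calls were made in the difference of responses of the RGI1 set and 0 in both differences from RGF1. It gave 18, 25 and 15 for the rapamycin response, the mock and the rapamycin comparison of the RGI1 line. Values that changed sign were all uncalled. In the RGF1 response, AT1G14540 stood at 0.024 (quantile), 0.031 (median-ratio), 0.27 (replicate block) and -0.28 to 0.13 without single libraries, AT1G05240 at 0.045 and 0.043 under these scalings and -0.090 to 0.067 without single libraries, and AT5G67400 at -0.23 to 0.020. In the RGI5 line, AT1G14540 stood at -0.0011 with a pseudocount of 5 and at -0.33 to 0.72 without single libraries, AT3G49120 at -0.21 to 0.18 and AT5G64120 at -0.35 to 0.10. The fall of AT5G17820 in the RGI1 line was called under quantile normalization (-0.23, adjusted p = 0.0475). Depth is unknown, and 3 libraries a group limit all of these counts.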
